A study of Mus musculus with 19 samples.

Results

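The genes described here are 48 genes of glutathione metabolism and of the response driven by the transcription factor NRF2, out of 17711 genes with a named probe in a study of iron overload in mice. They were chosen by name, as glutathione S-transferases, enzymes that make, recycle or use glutathione, other antioxidant enzymes, common NRF2 targets and the pair of regulators Nfe2l2 and Keap1. The choice was made with earlier results of these data known. Of these genes, 45 have at least 1 of 70 probes on the Illumina Sentrix Mouse-6 array, and Gpx4, Ggt1 and Prdx6 have no named probe here. Every gene is described by the probe with the highest mean signal in the tissue.

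The study took RNA from liver and duodenum of male C57BL/6 mice, with 1 array for each mouse and tissue, and 19 arrays in all. In the Hfe experiment, mice homozygous for a disruption of Hfe were set against wild-type mice (3 against 2 livers, 2 against 2 duodena), both on a standard diet. In the diet experiment, mice fed 2% carbonyl iron for 6 weeks were set against mice on a standard diet (3 against 2 in each tissue), all with an intact Hfe gene as far as the labels tell. By the labels, the Hfe-/- livers came from mice aged 10 to 12 weeks and the wild-type livers from mice aged 13 to 14 weeks. The Hfe-/- duodena are labelled 10 to 11 weeks, the wild-type duodena 12 to 13 weeks and all samples of the diet experiment 16 to 18 weeks. In the order listed, the labelled ages of the Hfe experiment rise by 1 week from each array to the next. The wild-type mice thus have other labelled ages by their livers than by their duodena. By the methods of the study both tissues came from the same mice, so the age labels cannot all hold. The methods, unlike the labels, give both genotypes the same age, and the true ages were not known. If the genotypes did differ in age, genotype and age cannot be told apart. The experiments differ in labelled age and in their standard diet. Hfe itself, by its single probe, had a log2 signal of 6.50 to 6.73 in Hfe-/- livers and 6.60 to 6.77 in wild-type livers, and was not detected in duodenum. Where that probe lies relative to the disruption was not known, so it does not check the genotype.

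Glutathione is a small thiol that cells use to neutralise peroxides and reactive compounds. It is made by glutamate-cysteine ligase (Gclc and Gclm) and glutathione synthetase (Gss), is kept reduced by glutathione reductase (Gsr), and is joined to reactive compounds by the glutathione S-transferases (GSTs), whose conjugates leave the cell through transporters of the Abcc family. NRF2, encoded by Nfe2l2, is normally bound by KEAP1 and degraded. When electrophiles or oxidants modify KEAP1, NRF2 enters the nucleus and binds antioxidant response elements of many of these genes. Regulation is at the level of the protein, so the transcripts of Nfe2l2 and Keap1 need not follow NRF2 activity. Liver is the main organ of detoxification, and the duodenal epithelium is the site of iron absorption and meets dietary iron first.

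Between 12846 and 14369 probes were detected on the liver arrays and between 13936 and 16965 on the duodenal arrays, at a detection p under 0.05. Levels below are log2 values of normalized bead signal, log2 fold changes are differences of group means of these values, and a gene passed the test at a Benjamini-Hochberg adjusted p under 0.05 from limma over all probes tested. Replicates are individual mice, and their number limits the precision of each value. The hepatocyte gene Apoa1 and the enterocyte gene Vil1 were detected in their tissues, while the probe for the enterocyte gene Fabp2 was not detected on any duodenal array. The hepatocyte gene Fgb and the pericentral hepatocyte genes Oat and Lect2 were not detected on any liver array. Of 5 hepatocyte markers with a probe, 4 were detected on at least 2 arrays of each liver comparison. In each duodenal comparison 3 were, Apoa1 among them, and not Alb or Fgb. Apoa1 alone thus does not set the tissues apart. Of 6 enterocyte markers with a probe, 5 were detected in this way in duodenum and 2 or 3 in liver. The wild-type duodena differed from each other in pancreatic genes. Over 10 acinar marker genes, the summed signal was 144903 and 217072 on the Hfe-/- arrays and 156776 and 3312 on the wild-type arrays.

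The clearest change of these genes was in the duodenum of mice on the iron-supplemented diet. There 10 of 41 tested genes passed the test as higher and 0 as lower. These are 24.4% of the genes, against 0.44% of all 16373 probes in either direction (0.177% as higher and 0.263% as lower). Because the list was drawn up with earlier results of these data known, these shares are not an independent test. The study had reported Gsta1, Gsta2, Gsta3, Gstm1, Gstm4, Gstm6 and Akr1b8, among others, as raised on these arrays. For Gstm1 it also reported a rise by quantitative RT-PCR on more mice. Of the 29 probes called higher on the whole array, 11 (37.9%) belong to the listed genes, including a second probe of Gstm6. The log2 fold change was above 0 for 35 of the 41 genes, with a median of 0.40, against a median of 0.01 over all probes. The groups did not overlap, with all 3 iron-supplemented arrays above both control-diet arrays, for 28 genes (68.3%), against 15% of all probes. The genes that passed came from 3 of the 10 roles, namely the alpha GSTs, the mu GSTs and the reductases and conjugating enzymes.

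The alpha class GSTs conjugate glutathione to electrophiles and reduce lipid peroxides. Gsta1 had log2 signals of 12.39, 12.23 and 12.56 on the iron-supplemented arrays and 11.03 and 10.23 on the control-diet arrays. It was 3.39-fold higher (log2 fold change 1.76 ± 0.22 SE, adjusted p = 0.0374 from limma). Gsta2 had log2 signals of 12.58, 12.56 and 12.93 on the iron-supplemented arrays and 11.49 and 10.94 on the control-diet arrays, which is 2.77-fold higher (adjusted p = 0.0371 from limma). For both genes every iron-supplemented array lay above every control-diet array. The other probe of Gsta2 had a log2 fold change of 1.50 ± 0.41 SE and did not pass (adjusted p = 0.299 from limma). Gsta3 had log2 signals of 10.68, 10.30 and 10.65 on the iron-supplemented arrays and 8.69 and 8.33 on the control-diet arrays. Its 4.09-fold difference had the smallest adjusted p of the alpha class (0.0182 from limma). Gsta4, which acts on the lipid peroxidation product 4-hydroxynonenal, had log2 signals of 12.59, 12.46 and 13.10 on the iron-supplemented arrays and 11.74 and 11.33 on the control-diet arrays. These do not overlap, but the 2.27-fold difference did not pass (adjusted p = 0.0998 from limma).

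Among the 7 mu class GSTs, which lie side by side on chromosome 3 and whose transcripts are alike in sequence, 3 passed. Gstm1 had log2 signals of 12.96, 12.38 and 12.48 on the iron-supplemented arrays and 10.28 and 10.73 on the control-diet arrays. It was 4.30-fold higher (log2 fold change 2.10 ± 0.20 SE, adjusted p = 0.022 from limma), and its second probe was not detected on any array of this comparison. Gstm4 had log2 signals of 9.32, 8.93 and 9.40 on the iron-supplemented arrays and 8.09 and 7.88 on the control-diet arrays, a 2.35-fold difference (adjusted p = 0.0358 from limma). Neither gene overlapped between the groups. Gstm6 had log2 signals of 11.68, 11.37 and 11.50 on the iron-supplemented arrays and 10.00 and 10.18 on the control-diet arrays, a 2.69-fold difference (adjusted p = 0.021 from limma). Its other probes gave smaller log2 fold changes, 0.68 (adjusted p = 0.0413 from limma) and 0.89 (adjusted p = 0.136 from limma). Gstm3 had log2 signals of 12.42, 11.85 and 11.53 on the iron-supplemented arrays and 10.89 and 11.23 on the control-diet arrays, and did not pass (adjusted p = 0.309 from limma). The log2 fold changes of Gstm2, Gstm5 and Gstm7 lay between 0.06 and 0.39. Whether a probe of this family also binds the transcript of a neighbour was not tested.

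The reductases and conjugating enzymes gave the largest differences. Cbr3, a carbonyl reductase, had log2 signals of 9.76, 9.00 and 9.37 on the iron-supplemented arrays and 7.01 and 7.22 on the control-diet arrays. It was 4.79-fold higher (log2 fold change 2.26 ± 0.21 SE, adjusted p = 0.022 from limma). Akr1b8, an aldo-keto reductase, had log2 signals of 9.36, 8.97 and 9.67 on the iron-supplemented arrays and 6.96 and 7.70 on the control-diet arrays, a 4.02-fold difference (adjusted p = 0.0381 from limma). Ephx1, the microsomal epoxide hydrolase, had log2 signals of 10.03, 9.66 and 9.82 on the iron-supplemented arrays and 8.13 and 7.97 on the control-diet arrays. Within each group its values lay close together, and the 3.45-fold difference passed (log2 fold change 1.79 ± 0.12 SE, adjusted p = 0.0182 from limma). Nqo1, the quinone reductase often used as a readout of NRF2, had log2 signals of 8.81, 8.79 and 8.88 on the iron-supplemented arrays and 8.10 and 8.02 on the control-diet arrays, a 1.70-fold difference (adjusted p = 0.022 from limma). Cbr1, the neighbour of Cbr3 on chromosome 16, had log2 signals of 11.33, 11.21 and 11.31 on the iron-supplemented arrays and 10.67 and 10.35 on the control-diet arrays. Its 1.70-fold difference fell just outside the threshold (adjusted p = 0.0537 from limma).

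**Figure D1:**
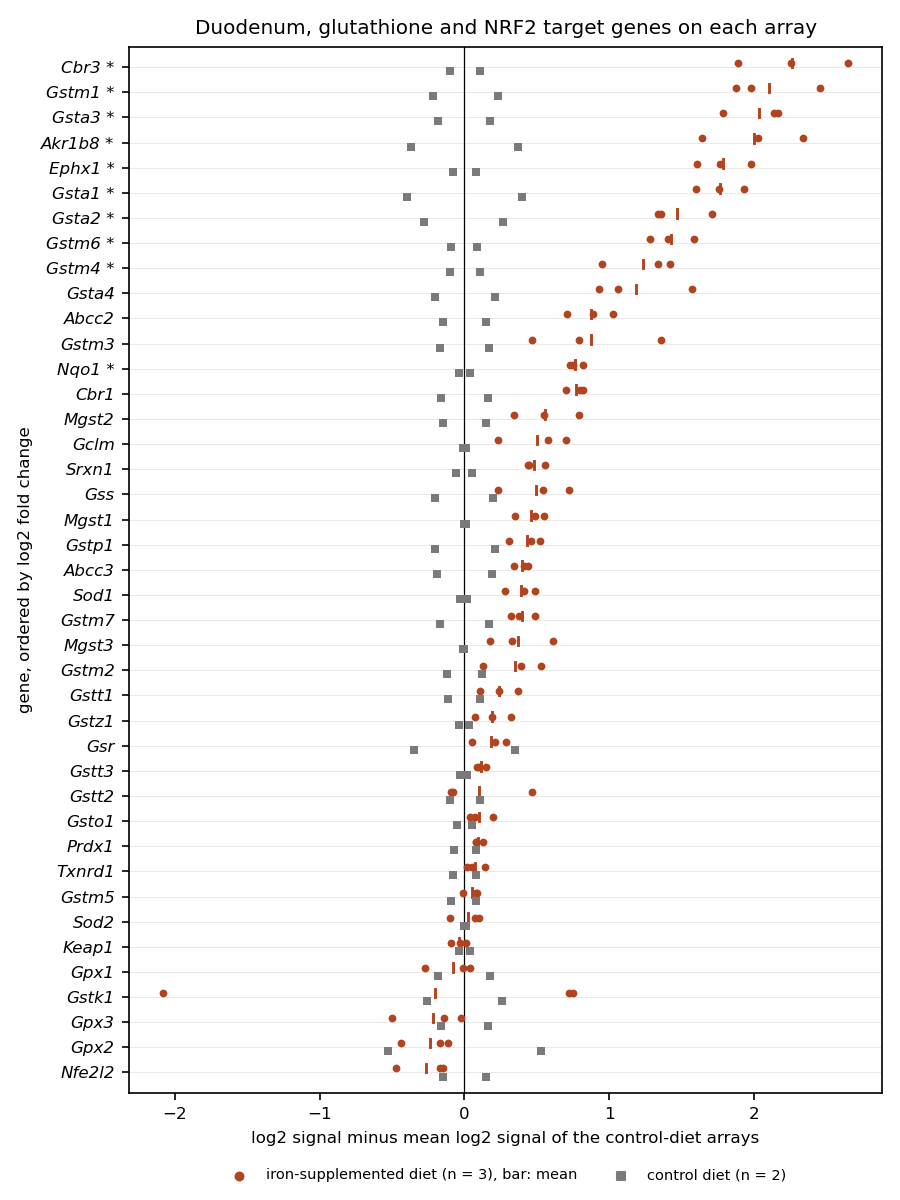
Log2 signal of the 41 tested genes on each duodenal array of the diet experiment, relative to the mean of the control-diet arrays (circles, iron-supplemented diet, n = 3, with a bar at their mean; squares, control diet, n = 2). Asterisks mark the 10 genes past the threshold, and genes are ordered by log2 fold change, from 2.26 for Cbr3 to -0.27 for Nfe2l2.

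No gene of the other roles passed in the duodenum on the iron-supplemented diet. Abcc2, an apical exporter of glutathione conjugates, came closest, with log2 signals of 9.36, 9.68 and 9.54 on the iron-supplemented arrays and 8.80 and 8.50 on the control-diet arrays (1.84-fold, adjusted p = 0.0537 from limma). The synthesis genes Gclm and Gss had log2 fold changes of 0.50 (adjusted p = 0.31 from limma) and 0.49 (adjusted p = 0.412 from limma), and Gclc was not detected. The 3 microsomal GSTs lay between 0.38 and 0.56, and Srxn1, which encodes sulfiredoxin, was at 0.49 (adjusted p = 0.106 from limma). The glutathione peroxidases differed in sign from the alpha GSTs, with log2 fold changes of -0.08 for Gpx1, -0.24 for Gpx2 and -0.22 for Gpx3, none of which passed. Gstk1, a mitochondrial GST, had log2 signals of 11.20, 11.23 and 8.40 on the iron-supplemented arrays and 10.74 and 10.22 on the control-diet arrays. The third iron-supplemented array thus lay far below the others for this gene.

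The regulators themselves did not pass. Nfe2l2 had log2 signals of 7.42, 7.72 and 7.74 on the iron-supplemented arrays and 7.74 and 8.04 on the control-diet arrays (log2 fold change -0.27, 95% confidence interval -0.59 to 0.06, adjusted p = 0.6 from limma). Keap1 had log2 signals of 9.13, 9.03 and 9.09 on the iron-supplemented arrays and 9.08 and 9.16 on the control-diet arrays (log2 fold change -0.04, 95% confidence interval -0.23 to 0.15). The groups overlapped for both.

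A further 44 genes of the same pathways, which are not among the 48, were read as a list. Of the 32 tested in this comparison 0 passed, 20 had a log2 fold change above 0, and the median was 0.16. Hmox1, the heme oxygenase that NRF2 and heme both control, averaged 8.32 ± 0.67 (SD, n = 3) on the iron-supplemented arrays and 7.17 ± 0.20 (SD, n = 2) on the control-diet arrays, and did not pass (adjusted p = 0.342 from limma). The study had reported Hmox1 as raised in this comparison, both on the arrays and by quantitative RT-PCR on more mice.

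Marker genes of several cell types other than enterocytes were lower in mean in the same comparison. The summed signal of the 6 enterocyte markers with a probe was 11032 to 12957 on the iron-supplemented arrays and 10947 to 13526 on the control-diet arrays. All 5 goblet cell markers were lower, with sums of 11134 to 15154 on the iron-supplemented arrays and 15440 to 17337 on the control-diet arrays. All 4 T cell markers were lower, with sums of 612 to 687 on the iron-supplemented arrays and 881 to 947 on the control-diet arrays. Of 10 acinar markers 9 were lower, with sums of 132941 to 141131 on the iron-supplemented arrays and 145972 to 163209 on the control-diet arrays. Both tested genes of Brunner glands and stomach were lower, and the summed signal of the 7 on that list was 5214 to 5563 on the iron-supplemented arrays and 7239 to 7311 on the control-diet arrays. None of these markers passed the test. In a bulk sample, fewer cells of a type and less RNA per cell cannot be told apart. The part of these shifts in the GST values was not tested. With median scaling in place of quantile normalization, or without iron-supplemented replicate 1, 0 of the 10 genes and 0 of all probes passed, while all 10 genes kept their sign. Without iron-supplemented replicate 3, 5 of the 10 passed.

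Promoter sequences bear on whether genes that moved together share the letters of an antioxidant response element. The core was searched as TGACNNNGC and TGAGNNNGC on both strands, in the RefSeq window (build GRCm38.p6) from 250 bases before to 50 bases after each gene start. It was present in 27.8% of all 32851 windows and in 30.8% of all 27025 genes. Among the 48 genes, 42 have a window and 17 of these (40.5%) hold the core. The first form alone was in 14 of the 42 genes (33.3%), in any of their windows, and in 12.4% of all single windows. The units differ, and no share of all genes was taken for this form. Counting both forms, 1 of the 10 genes that passed in the duodenum holds the core, which is Gsta3. Of the 6 genes with a window that passed in the liver 3 hold it in either form, namely Gstp1, Srxn1 and Abcc4. Both matches of Gstp1 are of the second form, which was added after the matches were seen. The windows below, with every match in capitals, show the single match of Gsta3 (121 bases before the start), 2 matches of Gstp1 (the first 74 bases before) and 3 of Srxn1 (one of them 45 bases before). The fourth window is 1 of 2 listed for Gstm1, which passed in both tissues and has no match in either. The positions are chr1:21240335-21240634 on the plus strand for Gsta3, chr19:4037863-4038162 on the minus strand for Gstp1, chr2:152105274-152105573 on the plus strand for Srxn1 and chr3:108017924-108018223 on the minus strand for Gstm1.
Gsta3: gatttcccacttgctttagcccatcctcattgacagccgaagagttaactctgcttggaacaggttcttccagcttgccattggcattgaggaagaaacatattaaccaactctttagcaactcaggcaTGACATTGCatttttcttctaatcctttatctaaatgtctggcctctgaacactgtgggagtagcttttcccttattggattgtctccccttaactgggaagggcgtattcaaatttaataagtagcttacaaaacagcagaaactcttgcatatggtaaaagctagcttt
Gstp1: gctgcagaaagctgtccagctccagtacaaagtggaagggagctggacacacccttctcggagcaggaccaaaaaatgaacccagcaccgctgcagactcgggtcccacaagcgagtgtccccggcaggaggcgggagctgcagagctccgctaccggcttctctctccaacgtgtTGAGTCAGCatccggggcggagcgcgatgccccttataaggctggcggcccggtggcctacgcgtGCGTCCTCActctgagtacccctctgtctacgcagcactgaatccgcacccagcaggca
Srxn1: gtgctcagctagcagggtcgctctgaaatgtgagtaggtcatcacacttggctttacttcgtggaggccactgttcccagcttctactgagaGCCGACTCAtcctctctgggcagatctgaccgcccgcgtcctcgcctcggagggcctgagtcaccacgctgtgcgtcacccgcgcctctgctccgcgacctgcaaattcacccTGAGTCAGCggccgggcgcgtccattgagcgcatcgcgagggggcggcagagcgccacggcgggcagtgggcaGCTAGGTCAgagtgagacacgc
Gstm1: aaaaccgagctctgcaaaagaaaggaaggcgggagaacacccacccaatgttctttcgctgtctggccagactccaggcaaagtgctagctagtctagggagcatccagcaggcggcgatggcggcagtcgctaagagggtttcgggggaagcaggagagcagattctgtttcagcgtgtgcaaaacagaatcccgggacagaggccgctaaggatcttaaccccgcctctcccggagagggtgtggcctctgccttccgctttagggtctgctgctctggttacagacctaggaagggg
A match is a run of letters and not a bound site, and elements farther from the gene start lie outside these windows.

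With iron supplementation, 6 of 41 tested genes passed as higher in liver and 1 as lower. These are 17.1% of the genes, against 2.17% of all 14919 probes (1.13% as higher and 1.04% as lower). As in the duodenum, the list was drawn up with earlier results known, so the shares in this paragraph are not an independent test. The study had reported Gstm6, Gstt2 and Gstp1, among others, as changed on these liver arrays. By any of their probes 9 of the listed genes passed, among them Mgst3 by its other probe. Of the 169 probes called higher on the whole array, 11 (6.51%) belong to the listed genes. The log2 fold change was above 0 for 29 genes, and the median was 0.19, against -0.01 over all probes. The groups did not overlap for 19 genes that were higher (46.3%, against 15.5% of all probes) and for 5 that were lower (12.2%, against 18.1%). The genes that passed came from 5 of the 10 roles.

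Akr1b8 had the smallest adjusted p. Its log2 signals were 7.26, 7.39 and 7.28 on the iron-supplemented arrays, and it was not detected on either control-diet array, nor on any liver array of the Hfe experiment. It was at least 1.69-fold higher, taking the lowest detected signal of each control-diet array as the bound (adjusted p = 0.0054 from limma). Akr1b8 met the detection filter through the iron-supplemented arrays alone, so this p-value rests on control-diet values below detection. It had no value when detection on every array was required. Gstm1 had log2 signals of 13.85, 13.72 and 13.65 on the iron-supplemented arrays and 13.06 and 13.03 on the control-diet arrays, a 1.62-fold difference (log2 fold change 0.69 ± 0.08 SE, adjusted p = 0.00952 from limma). Gstm6 had log2 signals of 12.57, 12.36 and 12.40 on the iron-supplemented arrays and 11.49 and 11.81 on the control-diet arrays by the chosen probe (1.73-fold, adjusted p = 0.0174 from limma). Its other probes, both detected on all 5 arrays, had log2 fold changes of -0.13 and -0.11 and did not pass, so the call of Gstm6 in liver rests on 1 of 3 probes.

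Gstt2, a theta class GST, had log2 signals of 9.25, 9.52 and 9.62 on the iron-supplemented arrays and 8.79 and 8.89 on the control-diet arrays (1.54-fold, adjusted p = 0.0431 from limma), and its other probe passed as well, with a log2 fold change of 0.87. Srxn1, which reduces overoxidised peroxiredoxins, had log2 signals of 8.42, 8.68 and 8.74 on the iron-supplemented arrays and 8.10 and 7.93 on the control-diet arrays (1.51-fold, adjusted p = 0.0455 from limma). Abcc4, an exporter at the blood side of the hepatocyte, had log2 signals of 6.92, 7.06 and 7.13 on the iron-supplemented arrays and 6.58 and 6.55 on the control-diet arrays, where it was detected on 1 of 2 (1.38-fold, adjusted p = 0.0415 from limma). These 3 genes lie near the threshold.

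Gstp1, the pi class GST, was the gene that passed as lower. It had log2 signals of 13.68, 13.40 and 13.38 on the iron-supplemented arrays and 14.14 and 14.21 on the control-diet arrays, a 1.61-fold difference (log2 fold change -0.69 ± 0.10 SE, adjusted p = 0.0216 from limma). Its other probes had log2 fold changes of -0.91 (adjusted p = 0.0249 from limma) and -0.52 (adjusted p = 0.0647 from limma). In the duodenum the 3 Gstp1 probes gave values of the other sign, from 0.34 to 0.42, and none passed.

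Several genes were separate between the liver groups by at least 1.4-fold without passing. Gsta1 had log2 signals of 9.15, 8.04 and 8.36 on the iron-supplemented arrays and 7.55 and 7.77 on the control-diet arrays (adjusted p = 0.188 from limma). Gsta2 had log2 signals of 9.32, 8.43 and 8.62 on the iron-supplemented arrays and 7.79 and 8.15 on the control-diet arrays (adjusted p = 0.155 from limma). For both, the first iron-supplemented array was the highest, as it was for Gclc, Gsr and Cat. Mgst3, a microsomal GST, had log2 signals of 9.12, 9.37 and 9.73 on the iron-supplemented arrays and 8.59 and 8.74 on the control-diet arrays (adjusted p = 0.0697 from limma), and its other probe passed with a log2 fold change of 0.77 (adjusted p = 0.0455 from limma). Gstm3 had log2 signals of 9.11, 9.00 and 9.24 on the iron-supplemented arrays and 8.14 and 8.78 on the control-diet arrays (adjusted p = 0.12 from limma). Gclc, the catalytic subunit of glutathione synthesis, had a log2 fold change of 0.59 (adjusted p = 0.207 from limma), while its partner Gclm was at -0.06.

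**Figure D2:**
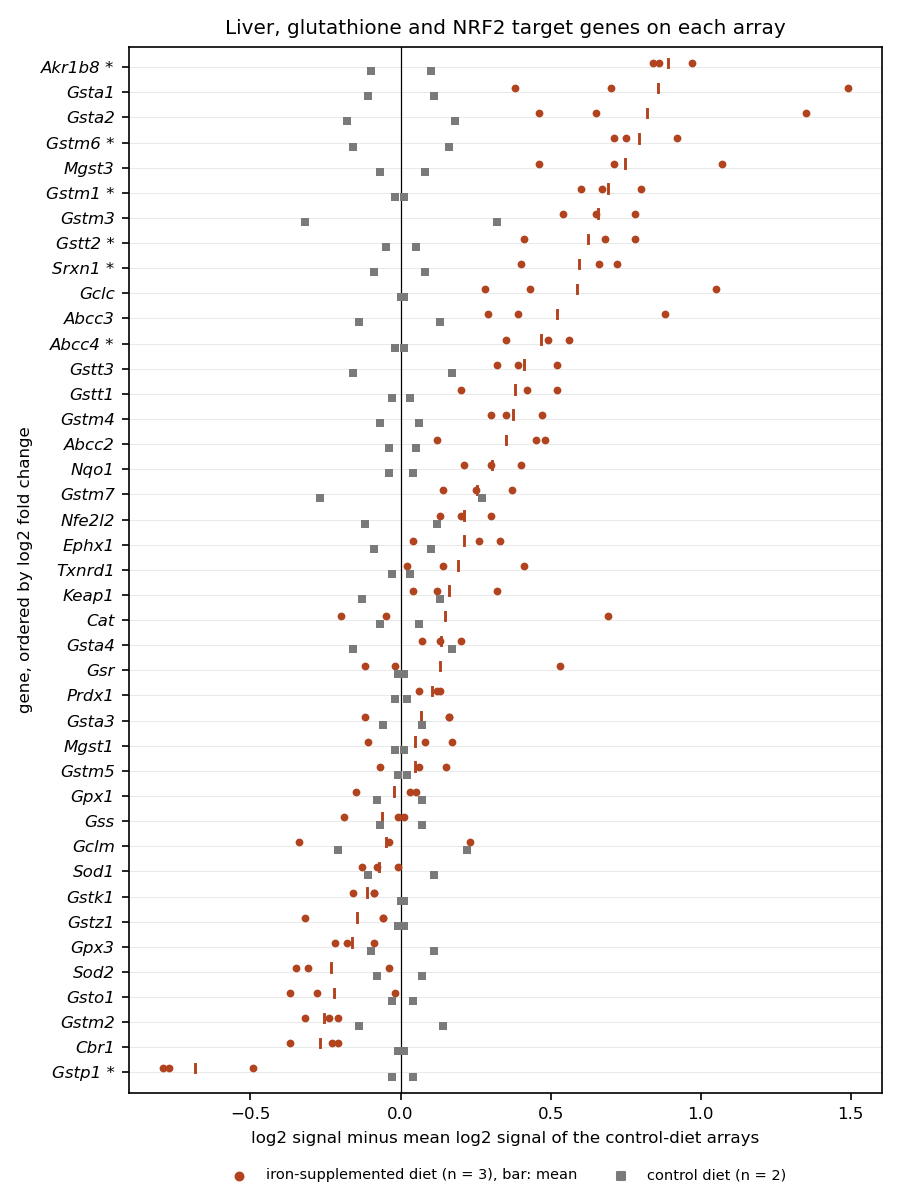
Log2 signal of the 41 tested genes on each liver array of the diet experiment, relative to the mean of the control-diet arrays (circles, iron-supplemented diet, n = 3, with a bar at their mean; squares, control diet, n = 2). Asterisks mark the 7 genes past the threshold. Akr1b8 leads at 0.89, with its control-diet arrays below detection, and Gstp1 is lowest at -0.69.

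Nfe2l2 in the liver had log2 signals of 7.29, 7.12 and 7.19 on the iron-supplemented arrays and 7.11 and 6.87 on the control-diet arrays (log2 fold change 0.21, 95% confidence interval -0.02 to 0.43, adjusted p = 0.344 from limma), which do not overlap. Keap1 had log2 signals of 8.77, 9.05 and 8.85 on the iron-supplemented arrays and 8.60 and 8.86 on the control-diet arrays (log2 fold change 0.15, 95% confidence interval -0.11 to 0.42). Of 31 other genes of the pathway tested, 0 passed as higher and 1 as lower, with a median log2 fold change of 0.04. The one that passed was Hagh, a glyoxalase that releases glutathione, at -0.67 (adjusted p = 0.0417 from limma).

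Targets of the nuclear receptor CAR, which also drives detoxification genes in liver, were read in the same samples. Of 9 tested cytochrome P450 and related genes of that kind, 8 had a log2 fold change above 0, with a median of 0.38 over the 9, and 2 passed as higher. Cyp2b10 averaged 9.94 ± 0.41 (SD, n = 3) on the iron-supplemented arrays and 6.31 ± 0.04 (SD, n = 2) on the control-diet arrays, where it was not detected, and was at least 10.5-fold higher (adjusted p = 0.000587 from limma). The first iron-supplemented liver also had a summed smooth muscle marker signal of 1454, against 652 and 533 on the other iron-supplemented arrays and 497 and 547 on the control-diet arrays. The part of either in the values above was not tested. The liver count fell to 1 gene, Akr1b8, with median scaling, and to 0 without iron-supplemented replicate 2 or without control-diet replicate 1. Without iron-supplemented replicate 3, or without control-diet replicate 2, it was 3.

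The diet effect was compared between the tissues in 1 model over both, for the 38 genes tested in each. The liver and duodenum arrays come from the same mice, but the labels do not say which arrays share a mouse, so they were taken as independent. The effect was smaller in liver for 4 genes (10.5%, against 0.848% of 12971 probes in either direction and 0.339% in this one) and larger for 0 (against 0.509%). For Gsta3 the log2 fold change was 0.06 in liver and 2.03 in duodenum, and the difference was -1.97 ± 0.28 SE (adjusted p = 0.00253 from limma). For Ephx1 it was 0.21 in liver and 1.79 in duodenum (difference -1.58 ± 0.21 SE, adjusted p = 0.00153 from limma). For Gstm1 it was 0.69 in liver and 2.10 in duodenum (difference -1.41 ± 0.23 SE, adjusted p = 0.00669 from limma), and for Gstm4 0.38 and 1.23 (difference -0.85 ± 0.18 SE, adjusted p = 0.0351 from limma). All 4 also had a higher level in untreated liver than in untreated duodenum, as given below. The fold change was above 0 in both tissues for 24 of the 38 genes, and 25 had a larger value in duodenum. Of the 12971 probes tested in both, 3532 were above 0 in both tissues and 7129 had a larger value in duodenum. With median scaling 0 of the 4 differences passed, and without control-diet liver replicate 1 only Gsta3 and Ephx1 did.

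In the liver of Hfe-/- mice, 0 of 39 tested genes passed the limma test in either direction, and 4 of all 14160 probes did (0.0282%). At an unadjusted p under 0.05 there were 12 genes (30.8%), against 8.94% of all probes. The log2 fold change was below 0 for 25 genes, with a median of -0.07 against -0.01 over all probes. The groups did not overlap for 11 genes that were lower in mean in Hfe-/- mice (28.2%, against 13.5% of all probes) and for 4 that were higher (10.3%, against 11.2%). All 4 alpha GSTs and 6 of 7 mu GSTs were below 0.

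Gstt2 had the smallest p. Its log2 signals were 9.17, 9.06 and 8.95 in Hfe-/- livers and 8.48 and 8.31 in wild-type livers (log2 fold change 0.67 ± 0.10 SE, adjusted p = 0.123 from limma). Cbr1 had log2 signals of 8.15, 8.96 and 8.36 in Hfe-/- livers and 9.25 and 9.31 in wild-type livers (log2 fold change -0.79, adjusted p = 0.352 from limma). Gstm1 had log2 signals of 12.14, 12.32 and 12.14 in Hfe-/- livers and 12.50 and 12.93 in wild-type livers (log2 fold change -0.51, adjusted p = 0.339 from limma). Gsta1 had log2 signals of 7.14, 7.07 and 6.72 in Hfe-/- livers and 7.30 and 7.72 in wild-type livers, and Gsta2 had 7.60, 7.51 and 6.97 in Hfe-/- livers and 7.81 and 8.16 in wild-type livers. None of these groups overlap, and none of these genes passed. Nfe2l2 had log2 signals of 6.94, 6.77 and 6.85 in Hfe-/- livers and 6.43 and 6.60 in wild-type livers, where 1 of 2 arrays was not detected (adjusted p = 0.379 from limma). Keap1 was between 8.72 and 8.77 on all 5 arrays.

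The Hfe and diet effects in liver were set against each other in a model of all 10 liver arrays. The Hfe effect was below the diet effect for 3 mu GSTs and above it for 0 (7.69% of 39 genes, against 1.02% of 13382 probes, 0.516% below and 0.508% above). For Gstm1 the log2 fold change was -0.51 with Hfe deficiency and 0.69 with the iron diet, a difference of -1.21 ± 0.17 SE (adjusted p = 0.012 from limma). For Gstm6 it was -0.37 and 0.79 (difference -1.16 ± 0.20 SE, adjusted p = 0.0249 from limma), and for Gstm4 -0.44 and 0.38 (difference -0.82 ± 0.14 SE, adjusted p = 0.0245 from limma). The other Gstm6 probes had diet values of -0.13 and -0.11, as given above. With median scaling 1 gene passed. The number that passed was 0 without control-diet replicate 1, 1 without Hfe-/- replicate 3, wild-type replicate 2 or iron-supplemented replicate 2 or 3, 6 without Hfe-/- replicate 1 and 7 without iron-supplemented replicate 1.

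**Figure D3:**
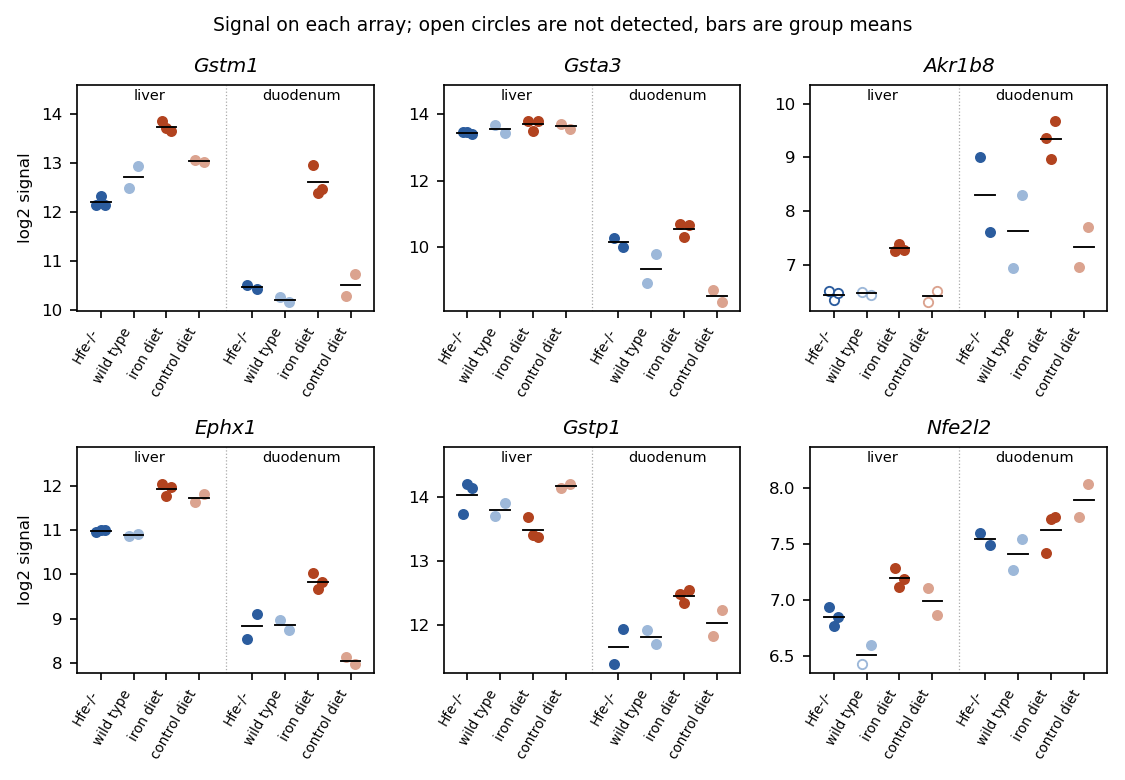
Log2 signal of 6 genes on each array of the 8 groups, with a bar at the group mean. Open circles are values not detected. Liver and duodenum, left and right of the dotted line, were normalized separately, so levels are not set across it. The iron-supplemented arrays lie above the control-diet arrays for Gstm1 in both tissues and for Gsta3 and Ephx1 in duodenum, while Gstp1 is lower with iron in liver.

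In the duodenum of Hfe-/- mice, 0 of 42 tested genes passed in the limma test, and 1 of all 16599 probes did (0.00602%). At an unadjusted p under 0.05 there were 7 genes (16.7%), against 6.87% of all probes. The median log2 fold change was -0.05, against -0.02 over all probes. The groups did not overlap for 9 genes that were higher in mean in Hfe-/- mice (21.4%, against 14.3% of all probes) and for 10 that were lower (23.8%, against 20.9%). Gsta3 had log2 signals of 10.26 and 10.00 in Hfe-/- duodena and 8.90 and 9.77 in wild-type duodena (log2 fold change 0.79 ± 0.29 SE, adjusted p = 0.703 from limma). Gsta1 had log2 signals of 11.77 and 11.27 in Hfe-/- duodena and 10.55 and 11.02 in wild-type duodena (log2 fold change 0.74, adjusted p = 0.65 from limma). On the other side, the intestinal glutathione peroxidase Gpx2 had log2 signals of 10.79 and 10.35 in Hfe-/- duodena and 11.55 and 11.25 in wild-type duodena (log2 fold change -0.83, adjusted p = 0.645 from limma). Cbr1 had log2 signals of 9.03 and 9.51 in Hfe-/- duodena and 9.83 and 10.09 in wild-type duodena (log2 fold change -0.69, adjusted p = 0.65 from limma), and Gpx3 had 8.55 and 8.91 in Hfe-/- duodena and 9.22 and 9.22 in wild-type duodena.

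Akr1b8 and Nqo1 varied as much within the groups as between them. Akr1b8 had log2 signals of 9.01 and 7.61 in Hfe-/- duodena and 6.95 and 8.31 in wild-type duodena. Nqo1 had log2 signals of 9.10 and 7.94 in Hfe-/- duodena and 7.46 and 8.24 in wild-type duodena. The confidence interval of the Akr1b8 difference ran from -0.80 to 2.16 on the log2 scale, which includes both 0 and the 2.01 measured with the diet. Nfe2l2 had log2 signals of 7.60 and 7.49 in Hfe-/- duodena and 7.27 and 7.55 in wild-type duodena, and Keap1 had 9.22 and 9.15 in Hfe-/- duodena and 9.21 and 9.19 in wild-type duodena. All 10 acinar markers were higher in mean in Hfe-/- duodena, with a median log2 fold change of 3.33, none passed, and wild-type replicate 2 alone had little of their signal. Genes of Brunner glands and stomach had summed signals of 105795 and 69929 in Hfe-/- duodena and 35765 and 115604 in wild-type duodena. The part of this in the values above was not tested.

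Neither the difference between the Hfe and diet effects in the duodenum (0 of 41 genes, and 0 of 15151 probes) nor the difference of the Hfe effect between liver and duodenum (0 of 37 genes, against 0.0159% of probes) gave a gene past the threshold. For the tissues, 9 of the 37 differences had an unadjusted p under 0.05 (24.3%, against 11.6% of all probes). In the duodenum the Hfe effect was below the diet effect in 33 of the 41 genes, with a median difference of -0.57, against -0.04 over all probes. Of the 41 differences, 18 had an unadjusted p under 0.05 (43.9%, against 9.6% of all probes), among them Ephx1 at -1.82 and Gstm1 at -1.84 (adjusted p = 0.14 from limma for each). The Hfe and diet effects rest on different control groups, which differed in Ephx1, as given below.

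The genes that passed in either diet comparison had the following values elsewhere. Of those that passed in duodenum on iron, Nqo1 had a log2 fold change of 0.30 and Gstm4 of 0.38 in liver on iron, and Cbr3 was detected on 1 of those 5 livers. Of those that passed in liver, Srxn1 was at 0.49 and Gstt2 at 0.10 in duodenum on iron, where Abcc4 was detected on 1 of 5 arrays. None of these passed. With Hfe deficiency in liver, Gsta3 was at -0.11, Ephx1 at 0.09, Srxn1 at -0.16, Abcc4 at -0.07 and Gstp1 at 0.23, while Akr1b8 and Cbr3 were not detected and Nqo1 was detected on 1 of 5 arrays. With Hfe deficiency in duodenum, Gsta2 was at 0.36, Gstm1 and Gstm6 at 0.26, Gstm4 at -0.13, Cbr3 at 0.45, Ephx1 at -0.04, Gstp1 at -0.15, Gstt2 at -0.30, Srxn1 at -0.25 and Abcc4 at 0.10.

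**Figure D4:**
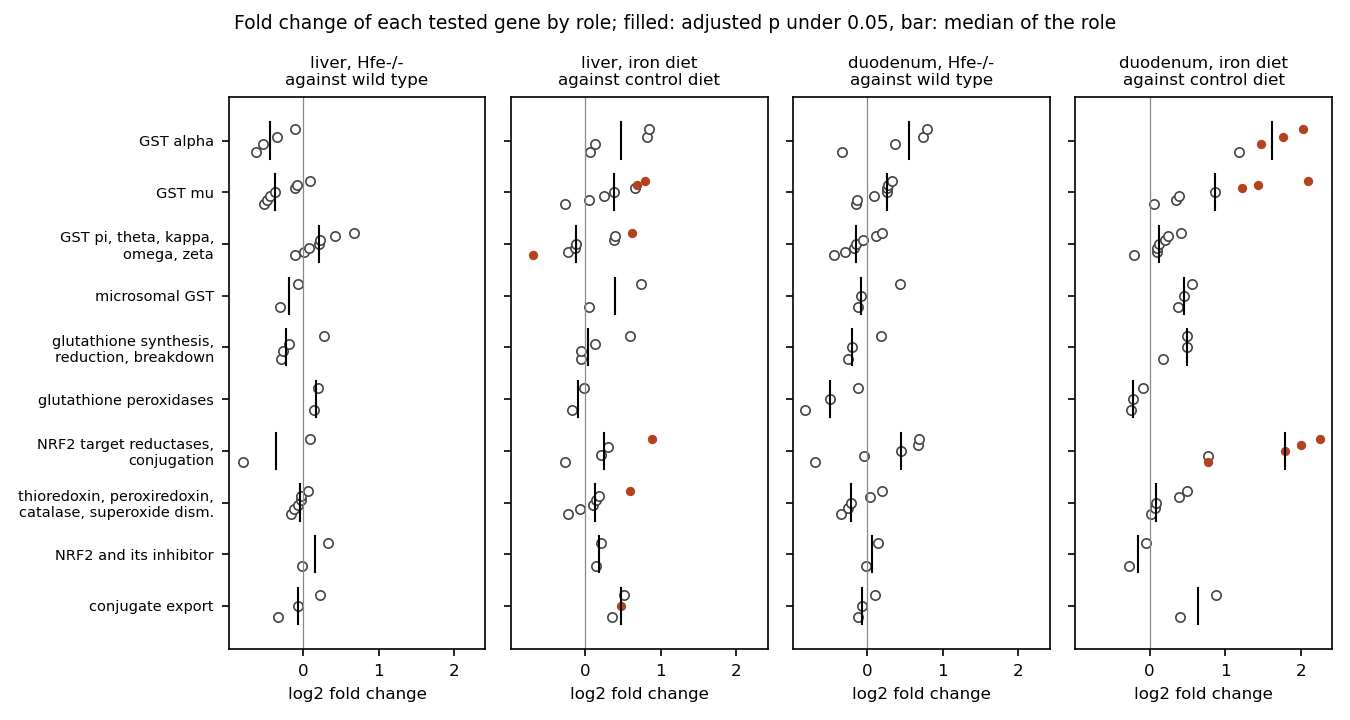
Log2 fold change of each tested gene, grouped by role, in the 4 comparisons. Filled points passed at an adjusted p under 0.05, and bars are medians of the role. The alpha GSTs have medians of -0.44 in Hfe-/- liver, 0.48 in liver on iron, 0.55 in Hfe-/- duodenum and 1.61 in duodenum on iron.

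Untreated liver and untreated duodenum (the wild-type and control-diet arrays, 4 of each tissue, normalized together) differed in 39 of 44 tested genes. Arrays of the same mouse were again taken as independent. The SDs below span both control groups, while the test used the spread within each. In liver 20 genes were higher and 19 were lower than in duodenum, and 53.9% of all 18348 probes passed (26.6% as higher and 27.3% as lower). Gsta3 was 25.7-fold higher in liver, with log2 signals of 13.53 ± 0.14 in liver and 8.85 ± 0.66 in duodenum (SD, n = 4 each, adjusted p = 5.79e-07 from limma). Gsta1 was 8.29-fold lower and Gsta2 11.7-fold lower in liver, so the alpha class was split between the tissues. Of the mu class, Gstm1 was 5.39-fold, Gstm6 3.71-fold and Gstm4 2.44-fold higher in liver, while Gstm3 was 3.38-fold lower. The microsomal class was split as well, with Mgst1 10.6-fold higher in liver, Mgst3 14.3-fold lower, and Mgst2 not detected on any of the 4 untreated livers and at least 19.5-fold lower there.

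Gpx2, the peroxidase of the gut epithelium, was not detected in untreated liver and was at least 30.6-fold lower there than in duodenum (adjusted p = 4.15e-07 from limma). Gpx1, the ubiquitous peroxidase, was 2.36-fold higher in liver. Catalase (Cat) was not detected in duodenum and was at least 2.01-fold higher in liver, and the superoxide dismutases Sod1 and Sod2 were 2.38-fold and 2.20-fold higher. Gstz1, which acts in tyrosine breakdown, was 9.35-fold higher in liver, and Ephx1 was 7.46-fold higher. The reductases Nqo1, Cbr1, Cbr3 and Akr1b8 and sulfiredoxin (Srxn1) were all lower in liver, by 2.22-fold for Nqo1, 1.86-fold for Cbr1 and 2.20-fold for Srxn1, and by at least 1.93-fold for Cbr3 and at least 1.63-fold for Akr1b8, which were not detected in untreated liver. For Akr1b8 the adjusted p of 0.0458 from limma was above the threshold in 8 of the 12 alternatives that gave it a value, up to 0.136, among them those without any 1 of the 4 untreated liver arrays. Nfe2l2 was 1.59-fold lower and Keap1 1.22-fold lower in liver. The genes that did not pass were Gstt2, Gss, Gsr, Prdx1 and Abcc4.

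**Figure D5:**
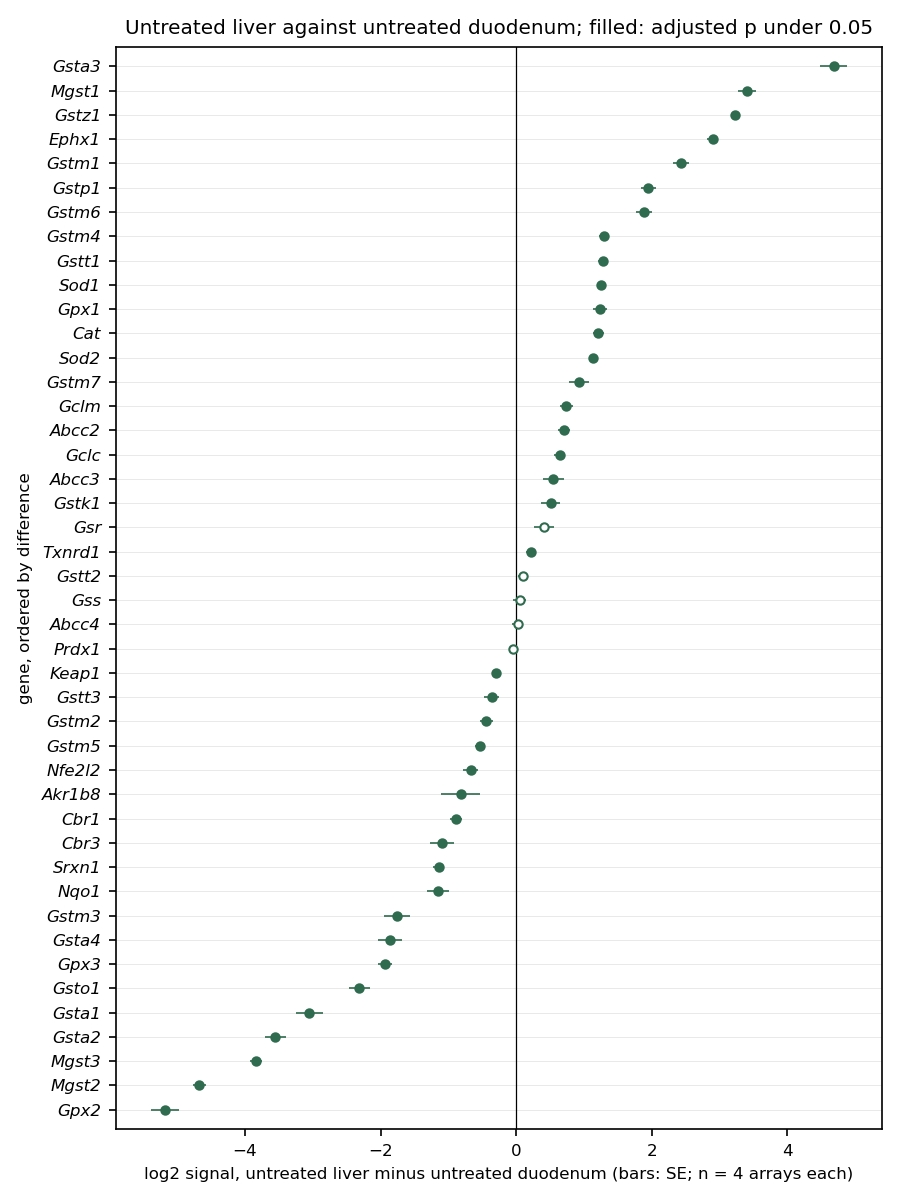
Difference in log2 signal between untreated liver and untreated duodenum for the 44 tested genes (points, with SE bars from the spread within each control group, n = 4 arrays of each tissue). Filled points passed at an adjusted p under 0.05. Gsta3 is farthest to the right at 4.68 and Gpx2 farthest to the left at -5.18.

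The untreated groups of the experiments were not alike for all genes. In liver 1 of 40 genes passed between wild-type and control-diet mice (2.50%, against 3.38% of all probes, 1.83% as higher and 1.55% as lower), which was Ephx1, with a log2 fold change of -0.83 (adjusted p = 0.0199 from limma). In duodenum 6 of 42 passed (14.3%, against 5.01% of all probes, 2.21% as higher and 2.8% as lower). Gstm3 (-1.60), Gstm6 (-1.03), Srxn1 (-0.97) and Gstm4 (-0.75) were lower, and Gstk1 (1.32) and Ephx1 (0.81) higher, in wild-type than in control-diet duodena. The liver count was 0 without any 1 of the 4 arrays and 4 with median scaling. The duodenal count was 10 without wild-type replicate 1, 0 without any other array and 0 with median scaling. Age, diet and the handling of the experiments cannot be told apart here.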

How the data were processed

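RNA of liver and duodenum was hybridised to Illumina Sentrix Mouse-6 arrays. The authors deposited non-normalized bead signals (intensity) with a detection p-value for each of 46632 distinct probes, and a table of log2 values that the authors quantile-normalized, used here only as an alternative for liver, because its duodenal columns did not follow the probe identifiers. Hfe-/- liver replicates 1 and 2 appeared exchanged between the deposited tables, and replicate names here follow the signal table. One divergent Hfe-/- duodenal sample was left out by the authors. Gene symbols came from the platform annotation (29976 probes with 1 symbol, 10 with several, 16646 with none). Here log2 signals were quantile-normalized over the arrays of a tissue, or over all 19 arrays between tissues, without subtracting background. Limma 3.58.1 (R 4.3.3) was applied to every probe that reached a detection p under 0.05 on 2 or more of the arrays compared, with Benjamini-Hochberg adjustment. Replicate numbers did not pair mice (correlations of deviations between -0.46 and 0.15). Per-array values were given for genes past the threshold, for genes separate by at least 1.4-fold (up to 6 in each direction) and for Nfe2l2 and Keap1. Members and lists were chosen with earlier results of these data known. The promoter core was widened to its second form after its matches were seen. The scripts were tested on simulated data.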

Additional observations from a re-analysis of the deposited data

Results flagged for a closer look

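For 7 values the test of a difference between effects passed. On the log2 scale, the Hfe effect minus the diet effect in liver was -1.21 for Gstm1 (adjusted p = 0.012 from limma), -1.16 for Gstm6 (adjusted p = 0.0249) and -0.82 for Gstm4 (adjusted p = 0.0245). The Hfe and diet effects rest on different control groups, and the Gstm6 value on 1 of 3 probes. The diet effect in liver minus that in duodenum was -1.97 for Gsta3 (adjusted p = 0.00253 from limma), -1.58 for Ephx1 (adjusted p = 0.00153), -1.41 for Gstm1 (adjusted p = 0.00669) and -0.85 for Gstm4 (adjusted p = 0.0351).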

How the results depend on the processing

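Of the genes past the threshold, 1 changed sign under an alternative, which was Gstt3 between untreated tissues (-0.36, and 0.02 with median scaling). Over all alternatives, values of named genes kept their side of the threshold 1175 times, lost it 156 times, gained it 16 times and changed sign 8 times. Median scaling in place of quantile normalization lowered the number past the threshold to 1 in liver on iron (0.543% of all probes), 0 in duodenum on iron, 1 for the Hfe minus diet effect in liver, 0 for the diet effect in liver minus duodenum and 0 between the duodenal control groups, and raised it to 4 between the liver control groups. It moved the median of all probes from 0.03 to -0.13 for the Hfe effect in liver minus duodenum. Normexp background correction gave 3 between the liver control groups. Detection on every array gave 4 in liver on iron, and no detection filter gave 1 in Hfe-/- liver. The SD and fold filter of the study, which is no test, took 3 genes in Hfe-/- liver, 7 in liver on iron, 2 in Hfe-/- duodenum and 11 in duodenum on iron. The cause of these changes was not tested.

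Without 1 replicate at a time, the count ranged from 0 to 1 in Hfe-/- liver, 0 to 10 in liver on iron, 0 to 11 in duodenum on iron, 0 to 7 for the Hfe minus diet effect in liver, 2 to 4 for the diet effect in liver minus duodenum, 0 to 1 for the Hfe effect in liver minus duodenum, 35 to 38 between untreated tissues, 0 to 0 between the liver control groups and 0 to 10 between the duodenal control groups.

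The other 7 changes of sign were of Keap1 and Nfe2l2, which had not passed. Keap1 in duodenum on iron was 0.05 with median scaling, 0.01 as the mean of its probes and -0.08 to 0.00 without 1 replicate. Keap1 in Hfe-/- duodenum was 0.22 with median scaling and -0.06 to 0.02 without 1 replicate. Without 1 replicate, Keap1 in Hfe-/- liver was -0.02 to 0.00 and Nfe2l2 in Hfe-/- duodenum 0.00 to 0.27.

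With the replicate number as a block, 7 genes passed in liver on iron (5 of the 7 kept, without Abcc4 and Srxn1), 9 in duodenum on iron (8 of the 10 kept, without Akr1b8 and Nqo1), 2 for the Hfe minus diet effect in liver and 0 with Hfe deficiency in either tissue. A crossed pairing in Hfe-/- duodenum, added after seeing the data, gave 0. With 2 or 3 arrays a group and no bead-level depth, the number of arrays limits the precision.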
